A study of Mus musculus with 32 samples.

Results

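Interferon-response genes are the genes that cells switch on when interferon, or nucleic acid of viral kind, is sensed. They were taken here as the protein-coding genes whose symbols belong to the Ifi, Oas, Gbp, Irf, Slfn, Mx, Stat, Irgm and Parp9, Parp12 and Parp14 families as the selection rule lists them, together with Isg15, Usp18, Rsad2, Rtp4, Ddx58, Dhx58, Herc6 and Trim25, wherever 1 of the 4 organ tables held them. That gave 53 genes of 10055 genes in any table, of which 8156 code for protein. The annotation GENCODE M21 has 90 protein-coding genes that fit these names. Genes reached an organ's table through an unadjusted p under 0.05 in the authors' test of the genotypes, so a gene had to differ between the genotypes to be among the 53, and the levels of the other matching genes are not analysed here. The liver table held 32 of the 53, the duodenum 18, the jejunum 8 and the ileum 23. By role, the 53 are 7 sensors of nucleic acid, 10 signalling proteins and transcription factors, 15 antiviral effectors, 10 GTPases, 3 genes of the ISG15 system, 6 Schlafen genes and 2 PARP genes. Irf2bp1 and Irf2bp2 came in through their names: they encode proteins that bind IRF2 and are not interferon regulatory factors themselves.

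The mice were males, either wild type (WT) or deficient in ketohexokinase (Khk KO), the enzyme that phosphorylates fructose, in a series on how fructose and this enzyme bear on iron homeostasis. Bulk RNA-seq of polyadenylated RNA was made from liver, duodenum, jejunum and ileum, 4 libraries for each organ and genotype, 32 in all. The age, diet, strain and the nature of the Khk allele are not given in the sources used here, nor is the mouse behind each library, so the p-values measure the spread between these libraries. The genes of the tables took 7505439 to 14331517 reads in each liver library, 1722220 to 3549978 in each duodenum library, 3053896 to 4325568 in each jejunum library and 6531593 to 9149003 in each ileum library. Khk itself, at 4.59% to 11.1% of the WT mean in the 4 organs, had its 4 Khk KO libraries below every WT library of the same organ. The exact two-sided permutation p was 0.0286 in each organ, the smallest that 4 against 4 allows.

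Type I interferons signal through the receptor IFNAR and the kinases JAK1 and TYK2 to a complex that holds STAT2 and IRF9, which binds the interferon-stimulated response element (ISRE) before the target genes. Interferon gamma acts through JAK1 and JAK2 on a different element, GAS. In the liver, Kupffer cells and hepatocytes both answer interferon, and in the small intestine the epithelium keeps a standing interferon-response programme in contact with the microbes of the lumen.

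RefSeq promoter windows on GRCm38.p6, from 250 bases before to 50 after the start site, could be matched by symbol for 36 of the 53 genes. The ISRE was searched as GAAANNGAAA and, for the other strand, TTTCNNTTTC, and matches that overlap were counted as found. It stood in 18 of the 36 windows and in 1131 of all 32851 mouse windows of that length (3.44%). The GAS element, TTCNNNGAA, which reads alike on both strands, stood in 10 of the 36 (27.8%) and in 8.3% of all windows. A match describes these letters and is neither a shown binding site nor a cause. The 150 bases before the start site of 6 genes are printed because these genes carry the same element and differed between the genotypes in opposite directions: Isg15 and Ifitm2 were lower in Khk KO, and Gbp7, Ifi207, Irgm1 and Slfn9 were higher. Capitals mark the ISRE matches, and overlapping matches run into each other.
Isg15: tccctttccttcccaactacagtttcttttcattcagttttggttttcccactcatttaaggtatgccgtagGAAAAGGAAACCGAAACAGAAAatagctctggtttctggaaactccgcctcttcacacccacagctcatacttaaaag
Ifitm2: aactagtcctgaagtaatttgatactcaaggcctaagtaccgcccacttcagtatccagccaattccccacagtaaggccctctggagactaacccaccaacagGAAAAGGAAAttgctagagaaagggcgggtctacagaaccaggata
Gbp7: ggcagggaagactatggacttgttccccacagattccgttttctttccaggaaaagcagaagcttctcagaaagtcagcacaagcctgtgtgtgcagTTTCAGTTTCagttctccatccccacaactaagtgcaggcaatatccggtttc
Ifi207: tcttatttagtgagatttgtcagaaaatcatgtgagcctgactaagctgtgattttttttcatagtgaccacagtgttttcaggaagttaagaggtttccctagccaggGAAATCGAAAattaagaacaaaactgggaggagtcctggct
Irgm1: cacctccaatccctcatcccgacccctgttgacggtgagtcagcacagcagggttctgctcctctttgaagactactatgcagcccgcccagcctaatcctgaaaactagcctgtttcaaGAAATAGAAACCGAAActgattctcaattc
Slfn9: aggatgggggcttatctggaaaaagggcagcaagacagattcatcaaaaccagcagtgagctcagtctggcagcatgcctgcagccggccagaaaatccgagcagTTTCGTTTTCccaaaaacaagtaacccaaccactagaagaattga
The windows lie at chr4:156200819-156200968 (minus strand) for Isg15, chr7:140955962-140956111 (minus strand) for Ifitm2, chr3:142530186-142530335 (plus strand) for Gbp7, chr1:173741810-173741959 (minus strand) for Ifi207, chr11:48871421-48871570 (minus strand) for Irgm1 and chr11:82991831-82991980 (minus strand) for Slfn9. The first matched base lies 78, 46, 53, 41, 30 and 45 bases before the start site in that order. Isg15 holds 3 overlapping matches and Irgm1 holds 2. In liver, 6 of the 15 lower genes with a window and 4 of the 7 higher ones held the element.

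Liver was the organ with the most interferon-response genes in its table, and most of them were lower without Khk. Of the 32, 24 were lower and 8 higher in Khk KO, where the whole table had 2933 genes lower and 3442 higher. By the adjusted p-values of the authors' deposited table, at a threshold of 0.05, 16 fell and 6 rose. That is 68.75% of the 32, against 68.5% of all genes in the liver table and 23.9% of the 18225 genes that the authors had adjusted over. The share of calls was therefore that of the table, while more of the 32 fell than rose. Of the table's genes 32.6% fell and 35.8% rose. By length, the 18 genes of up to 3000 bases were all lower, and of the 14 longer ones 8 were higher. Of the protein-coding liver genes, 6.81% up to 1500 bases and 8.68% from there to 3000 bases were higher. For 3000 to 4500, 4500 to 6000 and over 6000 bases the shares were 29.4%, 64.4% and 91.7%. The median log2 fold change of the 32 in the authors' deposited table was -0.70, against 0.42 over all its genes. In a bulk sample, fewer cells of a type and less RNA per cell cannot be told apart.

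In the intestine more of the interferon-response genes in the tables were higher than lower, but the tables held in part other genes than in liver. Of those up to 3000 bases, 0 of 18 were higher in liver and 0 of 6 in ileum. Of the longer ones, 8 of 14 were higher in liver and 14 of 17 in ileum. Of the 20 genes in more than 1 table, 2 went in both directions. The ileum table held 14 higher and 9 lower interferon-response genes, of which 8 rose and 4 fell by the adjusted p of the authors' deposited table. Of all its genes, 27.1% rose and 21.2% fell. This made 12 of 23 called, against 48.3% of the table's genes and 15.6% of the genes adjusted over. In the jejunum 7 of 8 were higher, and Irgm1 alone rose by the adjusted p of the authors' deposited table, in which 2.2% of genes rose. In either direction that table called 3.11% of its genes, 0.759% of those adjusted over. In the duodenum 14 of 18 were higher and none passed the adjusted p of the authors' deposited table, which 2.23% of its genes passed, 0.224% of those adjusted over. An edgeR refit of the duodenum counts also called none of 17 fitted, where 0.0711% of all fitted genes passed the adjusted p. Of the 17, 12 had an unadjusted p under 0.05 in the refit. All genes of the table had been chosen by such a p in the authors' test of the same libraries. The authors' median log2 fold changes of the interferon-response genes were 0.58 in duodenum, 0.65 in jejunum and 0.57 in ileum, against -0.33, 0.35 and 0.30 for all genes of the same tables.

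In at least 1 organ, 29 of the 53 genes were called by the authors' deposited tables, and 6 of these in 2. Of all 10055 genes, 54.5% were called in at least 1 table and 14.5% in 2 or more. The genotypes did not overlap, with 4 libraries on each side, for 11 of 32 liver genes, 10 of 18 of the duodenum, 4 of 8 of the jejunum and 11 of 23 of the ileum. The same held for 65.0%, 45.9%, 56.0% and 66.8% of all genes in these tables. The highest unadjusted p of an interferon-response gene was 0.0459 in liver (Oas1a), 0.0494 in duodenum (Gbp9), 0.0274 in jejunum (Gbp9) and 0.0465 in ileum (Irf2bp2), and genes just past the limit of the tables are not analysed here.

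The edgeR quasi-likelihood refit of the deposited counts called 13 of 31 fitted in liver, all of them among the authors' 22, where 46.7% of the fitted genes were called. Without WT replicate 1 it called 27 in liver and 83.3% of the genes fitted. Leaving out any 1 of the other 7 liver libraries gave 0 to 5, with 0.156% to 37.3% of genes called. In ileum it called 9 of 23, 8 of them among the authors' 12, against 46.4% of fitted genes. It called none of 8 in jejunum, where 0.0489% of all fitted genes passed the adjusted p. Of the 8, 7 had an unadjusted p under 0.05, the limit by which genes had entered the table in the authors' test. DESeq2 on the same counts called 18 (liver), 0 (duodenum), 3 (jejunum) and 15 (ileum), where it called 69.2%, 2.36%, 14.4% and 67.9% of genes. With the trend of each library with GC content taken out, edgeR called 7 in liver, all lower and 5 of them among the 13, so that none of the 5 rises of the refit was called. It called 1 in ileum, Parp14. These fits called 42.1% and 19.5% of genes, and no interferon-response gene passed in duodenum (0.0711% of genes called) or jejunum (0.0489%).

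Direction followed the length of the gene. Over the 4 tables, the 31 values of genes of up to 3000 bases were higher in Khk KO in 2 cases and lower in 29, and the 50 values of longer genes were higher in 41 and lower in 9. The length is the one the authors' tables give. All protein-coding genes of the tables did likewise: in liver 6.81% of those up to 1500 bases were higher in Khk KO, and 91.7% of those over 6000 bases. Across genes, which are not independent replicates, the Spearman correlation of length with the authors' log2 fold change was 0.68 over the 32 interferon-response genes of liver and 0.68 over 5448 protein-coding genes. In ileum it was 0.54 over 23 and 0.70 over 4485, in duodenum 0.25 over 18 and 0.50 over 1274, and in jejunum 0.19 over 8 and 0.56 over 1927. In the intestine genes of 3000 to 4500 bases parted from the rest: 5 of 5 interferon-response genes in duodenum, 1 of 1 in jejunum and 6 of 8 in ileum were higher in Khk KO, against 46.5%, 30.1% and 25.9% of the protein-coding genes of that length. Values that turn on this are also given from a fit in which the trend of each library with gene length was taken out. That fit also removes any effect of genotype that runs with length, and its trend was drawn over genes chosen for their difference between the genotypes.

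**Figure D1:**
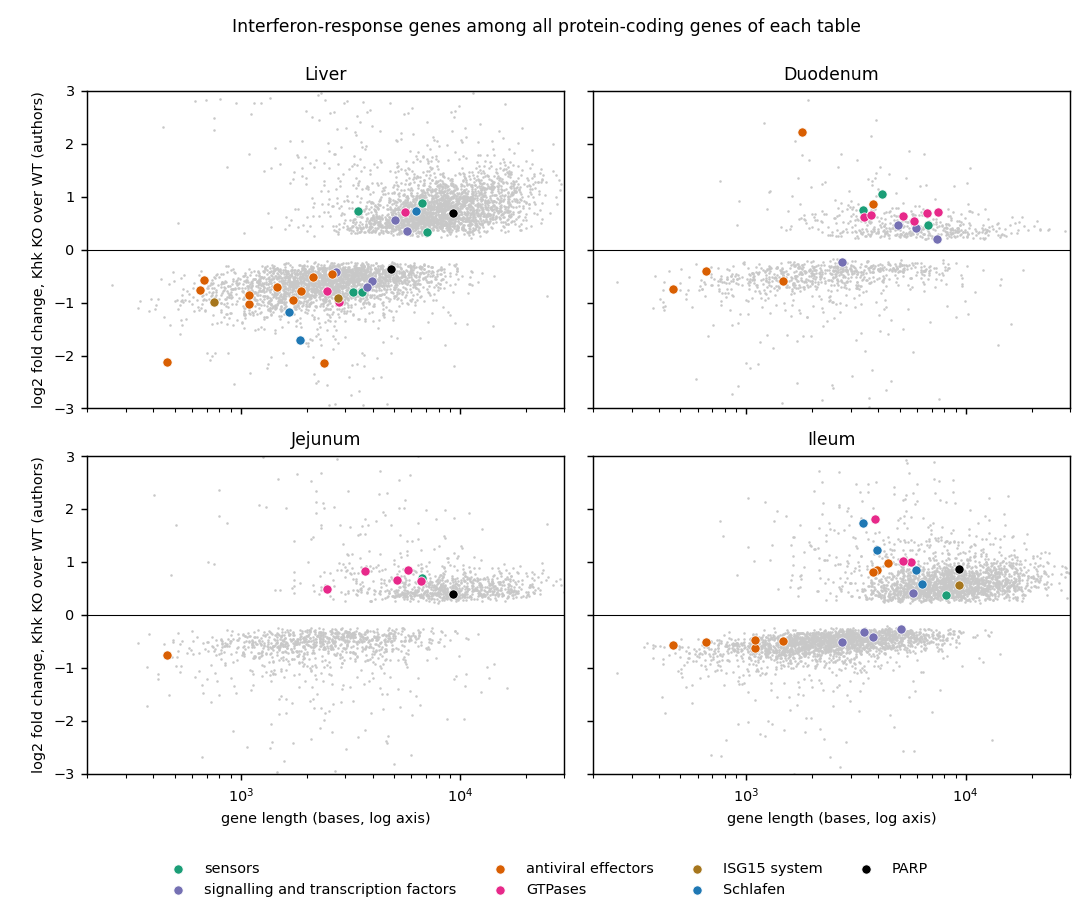
Log2 fold change, Khk KO to WT, from the authors' deposited tables (vertical axis, drawn from -3 to 3) against gene length in bases (horizontal log axis) for each organ. Grey points are all protein-coding genes of the table within the axes and coloured points are the interferon-response genes by role. Short genes lie mostly below 0 and long genes mostly above, and in the 3 intestinal segments most interferon-response genes of 3000 to 4500 bases lie above 0, where most grey points of that length lie below.

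The steepness of the length trend differed between libraries. As the height of the fitted curve at 1000 bases less that at 7000 bases, in log2, it ran from -0.71 to -0.54 in the 4 Khk KO livers and from -0.03 to 1.22 in the 4 WT livers. WT replicate 1 was the lowest of the WT livers and WT replicate 3 the highest. Of the 24 interferon-response genes lower in Khk KO liver, WT replicate 1 was the lowest WT library for 22 and WT replicate 3 the highest for 22. In duodenum WT replicate 1 stood at 1.09 with the other WT libraries at -0.06 to 0.20, and it was the lowest WT library for 13 of the 14 interferon-response genes that were higher in Khk KO. WT replicate 1 of jejunum (1.04) and of ileum (1.00) stood apart in the same way. The part of the length trend in the genotype differences was not tested.

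The edgeR fit with the length trend taken out called 2 genes in liver, Ifi207 among them, and Slfn4 in ileum. It called no interferon-response gene in duodenum or jejunum. There 7 and 3 had an unadjusted p under 0.05, in tables drawn up by such a p in the authors' test. In the same fits 13.7% of liver genes, 9.94% of ileum genes, 0.142% of duodenum genes and 0.0489% of jejunum genes were called. Medians of the log2 fold change over the interferon-response genes fitted moved to -0.19 (liver), 0.41 (duodenum), 0.53 (jejunum) and 0.18 (ileum). That of all genes fitted stood at 0.00, -0.04, -0.01 and -0.01.

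Among the sensors, the liver split between genes of the same cluster on chromosome 1, where the Ifi200 genes, which encode nuclear proteins that bind DNA, lie side by side. Ifi203 rose and Ifi207 rose, while Ifi204, a sensor of viral DNA, fell. Ifi207 (chr1:173723427-173741747, 3422 bases) stood at 114, 102, 133 and 142 normalised counts in the 4 Khk KO livers and at 91.9, 69.2, 65.8 and 71.2 in the 4 WT livers. Every Khk KO liver was above every WT liver, and WT replicate 1 was the highest of the WT livers. Its log2 fold change was 0.73 in the authors' deposited table (adjusted p = 0.0153), and with the length trend taken out it was 1.01 ± 0.22 (SE; edgeR adjusted p = 0.0264).

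Ifi203 had 214, 192, 120.2 and 209 normalised counts in Khk KO liver and 88.7, 97.4, 71.8 and 143 in WT liver. The lowest Khk KO library, replicate 3, lay below the highest WT library, replicate 4, so the groups overlapped. In the authors' deposited table its log2 fold change was 0.88 (adjusted p = 0.0106). Ifi204 had 85.4, 103, 85.7 and 106 in Khk KO liver and 102, 179.6, 209 and 169.9 in WT liver. WT replicate 1 lay among the Khk KO livers and the other 3 WT livers lay above all of them. For Ifi204 the authors' deposited table gave -0.80 in log2 (adjusted p = 0.0134).

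Dhx58, which encodes LGP2, a regulator of the RNA sensors RIG-I and MDA5, fell in liver. It stood at 129, 149.6, 115 and 122 normalised counts in Khk KO and 130.2, 282, 292 and 197 in WT. WT replicate 1 lay within the Khk KO range and the other WT livers above it, and the log2 fold change in the authors' deposited table was -0.81 (adjusted p = 0.0154). Ddx58, the gene of RIG-I, averaged 420.0 ± 58.2 normalised counts (SD) in Khk KO liver and 332 ± 21.4 in WT liver, with an adjusted p of 0.117 in the authors' deposited table. Ifih1, the gene of MDA5, averaged 1654 ± 395 in Khk KO ileum and 1269.6 ± 119 in WT ileum, with an adjusted p of 0.141 in the same source.

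Ifi203 was also in the duodenum and jejunum tables, higher in Khk KO in both without passing the authors' adjusted p. In duodenum it had 139, 117, 114 and 132 normalised counts in Khk KO and 57.6, 106, 83.3 and 114 in WT. In jejunum it had 196, 149, 176 and 198 in Khk KO and 66.99, 147, 85.8 and 145 in WT. In both segments the lowest Khk KO library lay above the highest WT library by a small gap, and WT replicate 1 was the lowest library. Ifi207 and Ifi205 were likewise higher in all 4 Khk KO duodenum libraries than in any WT library, with adjusted p of 0.459 and 0.528 in the authors' deposited table.

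Among the signalling proteins and transcription factors, Irf1, a transcription factor induced by interferon gamma, fell in liver. Its normalised counts were 291, 188, 242 and 217 in Khk KO and 259, 466, 379 and 299.9 in WT, and the ranges overlapped through Khk KO replicate 1 and WT replicate 1. Its adjusted p in the authors' deposited table was 0.045, for a log2 fold change of -0.58, and the edgeR refit did not call it (adjusted p = 0.102).

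Irf7, the factor that amplifies the production of type I interferon, fell in ileum. There it had 1739.5, 1251, 1806 and 1523 normalised counts in Khk KO and 2409, 1972, 2085 and 2038 in WT, with no overlap and with WT replicate 1 the highest library. The log2 fold change was -0.43 in the authors' deposited table (adjusted p = 0.044). In liver Irf7 had 573, 483, 449.8 and 592 in Khk KO and 415, 740.1, 1372 and 894 in WT. WT replicate 1 was here the lowest of all 8 libraries, and the authors' adjusted p was 0.0515. Without WT replicate 1, the liver edgeR refit called Irf7.

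Stat2, which carries type I interferon signals to the nucleus, was in the duodenum table only. It had 1062, 928, 939 and 1033 normalised counts in Khk KO and 534, 794, 846 and 788 in WT. The groups did not overlap, WT replicate 1 was the lowest library by a wide gap, and the adjusted p in the authors' deposited table was 0.465. Irf9, its partner at the ISRE, was in none of the 4 tables. Irf2, Irf3 and Irf4 were in 1 table each, and none passed the adjusted p of the authors' deposited tables: Irf2 and Irf4 were higher in Khk KO duodenum and Irf3 lower in Khk KO ileum. Trim25, the ubiquitin ligase that activates RIG-I, was higher in Khk KO liver and ileum, with adjusted p of 0.0992 and 0.072 in the authors' deposited tables. The edgeR refit called Trim25 in ileum (log2 fold change 0.42 ± 0.12, SE; adjusted p = 0.0479).

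Irf2bp1, a corepressor that binds IRF2, fell in liver and ileum. In liver it had 361, 346, 279.6 and 303 normalised counts in Khk KO and 419, 419, 457 and 422 in WT, with no overlap. In ileum it had 450.0, 482, 509 and 586 in Khk KO and 749.6, 655, 803 and 672 in WT, again with no overlap. The log2 fold changes in the authors' deposited tables were -0.41 and -0.51, with adjusted p of 0.0362 and 0.0126. Removing the length trend brought these to 0.05 and -0.13, with no call by edgeR. In duodenum all 4 Khk KO libraries (699 to 766) also lay below all WT libraries (783 to 951), at an adjusted p of 0.542 in the authors' deposited table.

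Irf2bp2, its relative, went in opposite directions in the 2 organs that held it. It rose in liver, at 1182, 1353, 1427 and 1579.9 normalised counts in Khk KO and 1337, 589, 851 and 969.9 in WT, where WT replicate 1 lay inside the Khk KO range. Its adjusted p in liver was 0.0484 in the authors' deposited table, and neither the edgeR refit nor DESeq2 on all libraries called it there. In ileum it had 1201, 1293, 1440.2 and 1451 in Khk KO and 1796, 1561, 1457 and 1679 in WT, lower without overlap and with an adjusted p of 0.16 in the authors' deposited table. A gene on the other strand, Gm26759, shares 20.5% of its exon bases, and without known strandedness their reads cannot be told apart.

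The antiviral effectors of liver were all lower in Khk KO, 11 of 11, and 8 of them fell by the authors' deposited table. These genes are short, from 463 to 2608 bases, and of all protein-coding genes of the liver table only 6.81% up to 1500 bases and 8.68% from there to 3000 bases were higher in Khk KO. Calls were made for 68.5% of the genes of the table. The IFITM genes encode membrane proteins that block the entry of viruses. By FPKM, a level per length, Ifitm3 and Ifitm2 were the highest of the interferon-response genes in WT liver, while Ifitm1 stood at 7.65 ± 2.62 (SD). Ifitm3 stood at 723 ± 224 FPKM in WT (SD, n = 4) and 474 ± 65.4 in Khk KO, and Ifitm2 at 219 ± 54.5 and 126 ± 14.9. The median over the 32 genes was 7.11 FPKM in WT liver.

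Ifitm2 had 1016, 1036, 797 and 1058 normalised counts in Khk KO liver and 1202, 1889, 2079 and 1496 in WT liver. The groups did not overlap, and the authors' deposited table gave -0.77 in log2 (adjusted p = 9.83e-04). In ileum it fell too, from 1406, 1176, 1044 and 937 in WT to 746, 882, 761 and 803 in Khk KO, or -0.51 in log2 (adjusted p = 0.0182 in the authors' deposited table). In duodenum the 4 Khk KO libraries had 554, 458, 624 and 589 and the WT libraries 985, 677, 627 and 664, just apart and with WT replicate 1 far above the rest (adjusted p = 0.499 in the authors' deposited table). Taking out the length trend brought the 3 differences to 0.02, 0.10 and 0.03, all slightly above 0. The gene is 655 bases long, and 40.9% of its exon bases are shared with Gm45717 on the same strand.

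Ifitm1 fell in liver, with 72.9, 41.2, 51.2 and 49.1 normalised counts in Khk KO and 73.3, 95.2, 143 and 76.9 in WT, and the highest Khk KO library lay just under the lowest WT library. Its adjusted p was 0.032 in the authors' deposited table for liver and 0.0946 for ileum, where it was also lower.

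The ISG12 genes Ifi27, Ifi27l2a and Ifi27l2b, which encode small hydrophobic proteins and lie next to each other on chromosome 12, were lower in Khk KO in every table that held them. Ifi27l2a (chr12:103442167-103443680) was the 1 gene present in all 4 tables. In liver it had 29.7, 29.1, 34.5 and 26.3 normalised counts in Khk KO and 19.7, 82.2, 273 and 146 in WT. The Khk KO livers were close together while the WT livers spread widely, and WT replicate 1 was the lowest of all 8. The other 3 WT livers alone therefore made the log2 fold change of -2.13 (adjusted p = 0.00102 in the authors' deposited table).

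In duodenum Ifi27l2a had 94.00, 129, 92.5 and 118 in Khk KO and 281, 164, 173 and 109 in WT. In jejunum it had 143, 157, 96.8 and 72.2 and 282, 184, 180.5 and 151, and in ileum 187, 174, 100.3 and 169.6 and 256, 328, 201 and 152, in the same order of genotypes. The groups overlapped in each of the 3 segments, and the adjusted p-values of the authors' deposited tables were 0.459, 0.197 and 0.156.

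Ifi27l2b fell in liver, where it had 35.5, 40.2, 33.3 and 69.05 normalised counts in Khk KO and 63.5, 84.4, 107 and 111 in WT, with 1 Khk KO library above the lowest WT library. It fell in ileum without overlap, at 1453, 1621, 1727 and 1710.3 in Khk KO and 3462, 1949, 2179 and 2420.1 in WT, and there it had the highest FPKM of the interferon-response genes, 109 ± 26.5 in WT (SD, n = 4). In log2 it changed by -1.03 in liver and -0.62 in ileum (adjusted p = 0.0118 and 0.0135 in the authors' deposited tables). Its ileum value was -0.04 with the length trend out. Ifi27 fell in liver, from 1096, 1857, 1992 and 1630.3 in WT to 1033, 748, 857 and 1407 in Khk KO, with overlap through Khk KO replicate 4 and WT replicate 1 (adjusted p = 0.0152 in the authors' deposited table). In duodenum and ileum it averaged 811 ± 100.2 and 521 ± 88.05 in Khk KO and 1221 ± 429.9 and 735 ± 240.1 in WT (SD), with no call in the authors' deposited tables.

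Ifi35, whose protein pairs with NMI in innate signalling, fell in liver from 308, 514, 666 and 376 normalised counts in WT to 231, 233, 244 and 262 in Khk KO. The groups did not overlap, and the Khk KO livers lay within a narrow band. The authors' deposited table gave -0.94 for the log2 fold change (adjusted p = 0.00103). A gene on the other strand, Gm11626, shares 16.8% of its exon bases.

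The OAS genes encode enzymes or related proteins that answer double-stranded RNA. Oas1c was low in liver, with 4.80, 7.03, 5.95 and 9.09 normalised counts in Khk KO and 12.04, 22.7, 58.98 and 23.7 in WT, and fell with no overlap (log2 fold change -2.14, adjusted p = 0.00499 in the authors' deposited table). Oas1a and Oasl1 in liver and Oas2 in ileum had adjusted p of 0.134, 0.123 and 0.0709 in the authors' deposited tables. Oas2 had 123, 102, 124 and 185 in Khk KO ileum and 22.4, 72.8, 62.2 and 113 in WT ileum, with overlap. Oas1e, at 2.62 to 17.95 in Khk KO duodenum and 0 to 4.18 in WT duodenum, was not adjusted by the authors. The OAS1 genes are related copies, so some reads may be divided among them uncertainly, which was not measured. Rtp4 in liver, lower at 196 ± 56.6 against 279.9 ± 68.6 (SD), had an adjusted p of 0.122 in the same source.

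The effectors of ileum went in both directions. The short IFITM and ISG12 genes were lower, as were most ileum protein-coding genes up to 1500 bases, of which 3.53% were higher. Mx1, Ifit2 and Oas2, of 3000 to 4500 bases, were higher, although only 25.9% of the protein-coding genes of that length were. Mx1, a GTPase that traps viral particles, rose: it had 186, 154, 143 and 208 normalised counts in Khk KO ileum and 69.6, 76.4, 152 and 96.3 in WT ileum, where WT replicate 3 lay inside the Khk KO range. Its log2 fold change was 0.81 in the authors' deposited table (adjusted p = 0.0356). In duodenum Mx1 was higher in all 4 Khk KO libraries (67.2 to 116) than in any WT library (35.00 to 64.1), at an adjusted p of 0.296 in the authors' deposited table. Ifit2, which binds viral RNA, rose in ileum, with 620.2, 395, 518 and 254 in Khk KO and 211, 334, 166 and 285 in WT. Its lowest Khk KO library, replicate 4, lay below 2 WT libraries, and its adjusted p was 0.0324 in the authors' deposited table. The edgeR refit called neither Mx1 (adjusted p = 0.0763) nor Ifit2 (adjusted p = 0.0781) in ileum. Both kept their sign with the length trend taken out, at 0.97 and 0.98.

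**Figure D2:**
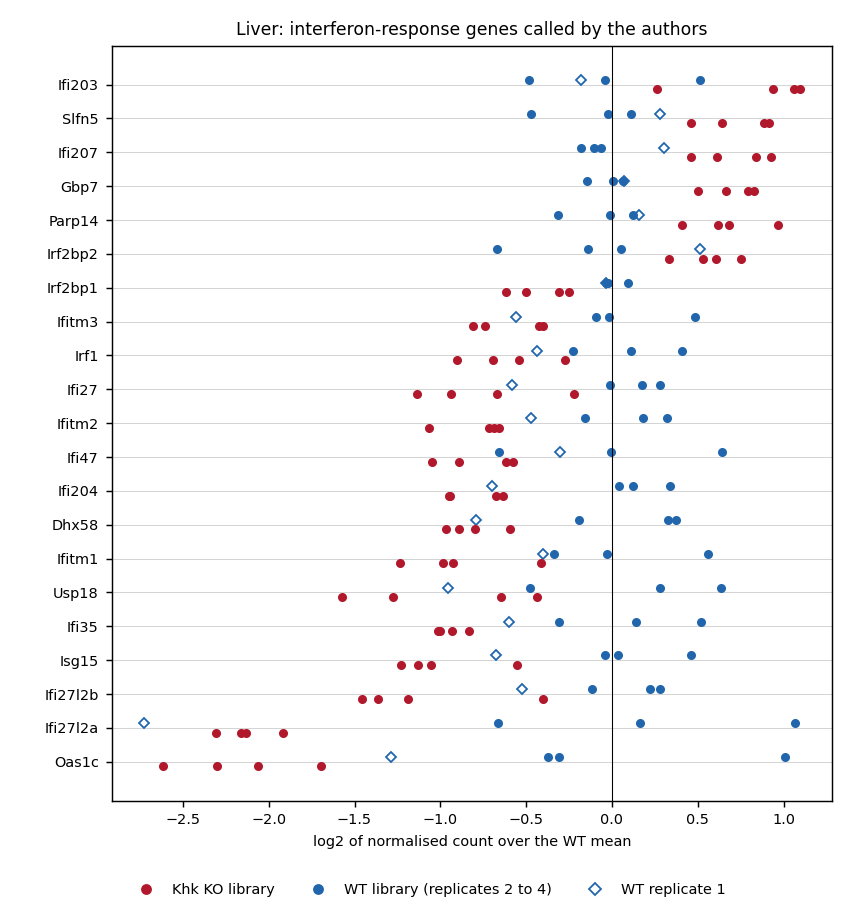
Each liver library of 21 of the 22 interferon-response genes that passed the authors' adjusted p, as log2 of the normalised count over the mean of the 4 WT livers (horizontal axis). Red points are Khk KO, filled blue points WT replicates 2 to 4 and open diamonds WT replicate 1. Among the genes that fell, WT replicate 1 lies nearest to the Khk KO livers in most rows, and for Ifi27l2a it lies below all of them.

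The guanylate-binding proteins (GBP) and the immunity-related GTPases (IRG, here Irgm1, Irgm2 and Ifi47) take part in the defence against intracellular microbes. They are classic targets of interferon gamma. In the intestine all of those in the tables were higher in Khk KO: 6 of 6 in duodenum, 5 of 5 in jejunum and 3 of 3 in ileum. Higher values were found for 42.1%, 54.0% and 51.3% of all genes of these segments' tables. Of their protein-coding genes from 3000 to 4500 bases, 46.5%, 30.1% and 25.9% were higher, and fewer of the shorter ones. From 4500 to 6000 bases the shares were 60.8%, 55.3% and 62.2%, and over 6000 bases 77.0%, 91.0% and 92.0%. Irgm1 and Gbp7 are shorter than 6000 bases. Of these 14 values, Irgm1 in jejunum and Gbp7 and Gbp10 in ileum passed the adjusted p of the authors' deposited tables, in which 2.23% of duodenum genes were called, 2.2% of jejunum genes rose and 27.1% of ileum genes rose. In liver Gbp7 rose, Ifi47 fell and Gbp2b, at 17.8 to 48.9 normalised counts in Khk KO and 26.3 to 91.5 in WT, did not pass (adjusted p = 0.131 in the authors' deposited table).

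Irgm1 (chr11:48861968-48871683, 5810 bases) was the 1 interferon-response gene called in jejunum. It had 660.5, 685, 688 and 444 normalised counts in Khk KO jejunum and 304, 359, 369.9 and 341 in WT jejunum. The groups did not overlap, although Khk KO replicate 4 stood well below the other 3. Its log2 fold change was 0.85 in the authors' deposited table (adjusted p = 0.00774), and 0.85 ± 0.19 in the edgeR refit (SE; adjusted p = 0.237), which did not call it. Removing the length trend gave 0.70 ± 0.17 (edgeR adjusted p = 0.283). In duodenum Irgm1 had 409.8, 659.6, 413 and 342 in Khk KO and 235, 374, 321 and 323 in WT, with overlap and an adjusted p of 0.488 in the authors' deposited table.

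Irgm2 in jejunum had 705, 798, 701 and 427 normalised counts in Khk KO and 310.4, 465, 319.7 and 390.0 in WT, and its adjusted p in the authors' deposited table was 0.0518. Khk KO replicate 4 was again the lowest of its group and lay within the WT range. DESeq2, run as an alternative on the same counts, called Irgm1, Irgm2 and Parp14 in jejunum.

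Gbp4, Gbp5 and Gbp8 did not overlap in duodenum. Gbp4 had 233, 205, 205 and 219 normalised counts in Khk KO and 105, 170.3, 108 and 139 in WT, and at 0.0833 the lowest adjusted p of the interferon-response genes of duodenum in the authors' deposited table. Gbp5 had 138 to 157 against 59.7 to 114 there and 129 to 177 against 71.3 to 115 in jejunum, again without overlap. Gbp8 had 155 to 179.7 against 43.2 to 142. None of these passed, and the jejunum value of Gbp5 was not adjusted by the authors.

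Gbp9 was higher in Khk KO in all 3 segments without a call by the authors' deposited tables. In duodenum it had 176, 164, 154 and 137 normalised counts in Khk KO and 39.1, 116, 108 and 144 in WT. In jejunum it had 187, 159, 195 and 207 and 60.3, 137, 110.3 and 163, and in ileum 485, 436, 510.0 and 249.6 and 48.5, 225, 246 and 309.5. WT replicate 1 was by far the lowest library in each segment, and the groups overlapped in each. Gbp4, Gbp8 and Gbp9 lie next to each other on chromosome 5 and share up to 1.77% of their exon bases.

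Gbp7 rose in both liver and ileum. In liver (5614 bases, chr3:142530342-142550149) it had 274, 245, 219 and 268 normalised counts in Khk KO and 162, 139.6, 155 and 161 in WT, with no overlap and little spread. The log2 fold change was 0.70 in the authors' deposited table (adjusted p = 0.0011). In ileum it had 1009.7, 945, 1033 and 445 in Khk KO and 403, 467, 318 and 537 in WT, where Khk KO replicate 4 lay inside the WT range (log2 fold change 0.99, adjusted p = 0.00384 in the authors' deposited table). Without the length trend the values were 0.41 and 0.79, neither called by edgeR. Gm43802 shares 11.3% of the exon bases of Gbp7. Gbp10, called in ileum by the authors' deposited table, had only 8.67 to 34.2 normalised counts in Khk KO and 3.59 to 13.5 in WT, and shares 46.3% of its exon bases with Gm43302.

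Ifi47 went in opposite directions in liver and jejunum. In liver it fell, with 175, 145, 129.7 and 179.9 normalised counts in Khk KO and 218, 169.9, 418 and 268 in WT and overlap through WT replicate 2 (log2 fold change -0.77, adjusted p = 0.0255 in the authors' deposited table). In jejunum it had 486, 556, 481 and 376 in Khk KO and 272, 280.3, 442 and 358 in WT, with an adjusted p of 0.238 in the same kind of table. The difference between the 2 organs' effects, tested as an organ by genotype term in edgeR, was -1.32 ± 0.36 (SE) in log2, with an adjusted p of 0.108 over 1290 genes. This pair of organs was chosen after the values were seen.

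**Figure D3:**
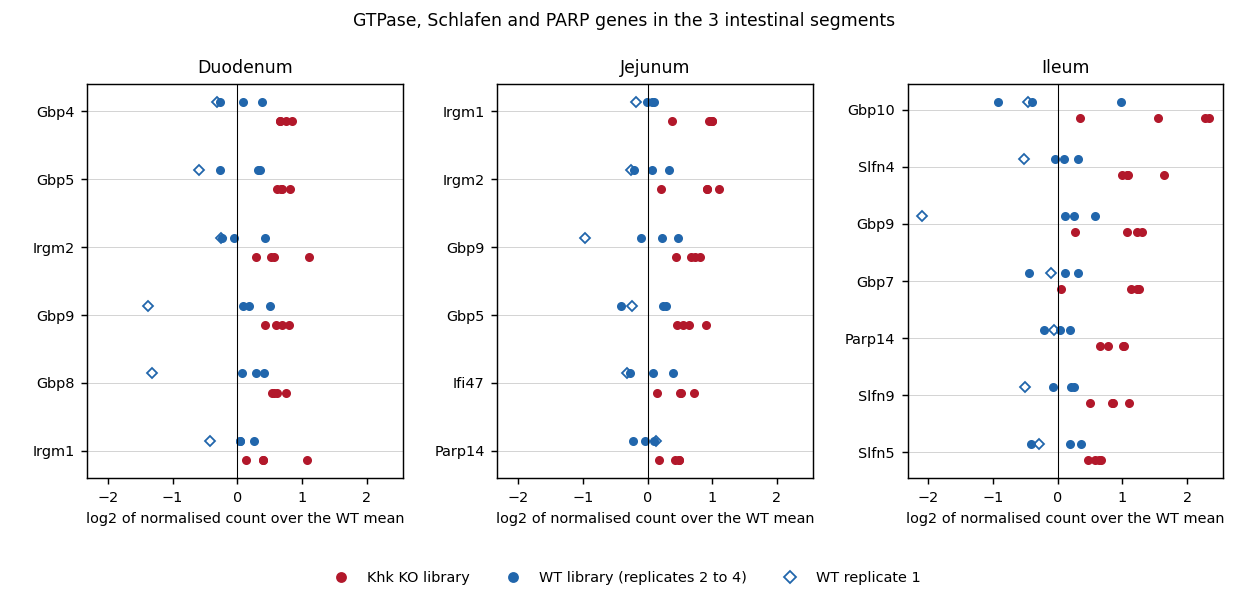
Each library of the GTPase, Schlafen and PARP genes in duodenum, jejunum and ileum, as log2 of the normalised count over the mean of the 4 WT libraries of the segment (horizontal axis). Red points are Khk KO, filled blue points WT replicates 2 to 4 and open diamonds WT replicate 1. Slfn3, at 0 in 1 WT ileum library, is not drawn. Most Khk KO points lie to the right of the WT points, and WT replicate 1 is often the leftmost.

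The ISG15 system attaches the small protein ISG15 to others and removes it. Isg15 and Usp18, the protease that removes ISG15 and also damps the interferon receptor, both fell in liver. Isg15 had 40.3, 43.2, 64.3 and 45.4 normalised counts in Khk KO and 59.1, 91.97, 130.1 and 96.8 in WT, or -0.98 in log2 (adjusted p = 0.0126 in the authors' deposited table). Usp18 had 166, 75.3, 92.8 and 144 in Khk KO and 116, 161, 349 and 272 in WT, or -0.91 in log2 (adjusted p = 0.0408 in the same source). The genotypes overlapped, for Isg15 through WT replicate 1 and for Usp18 through WT replicates 1 and 2, and the edgeR refit called Isg15 (adjusted p = 0.0477) and not Usp18 (adjusted p = 0.118). Without the length trend they stood at -0.19 and -0.42. Herc6, the mouse ligase for ISG15, was in the ileum table alone, with 295 ± 94.4 normalised counts (SD) in Khk KO ileum, 198 ± 47.4 in WT ileum and an adjusted p of 0.136 in the authors' deposited table.

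Schlafen genes, which restrain cell growth and virus replication, were higher in Khk KO ileum. For all 4 in its table, each Khk KO library exceeded every WT library, and Slfn4, Slfn5 and Slfn9 rose by the authors' deposited table. Such a separation with Khk KO above WT was found in 36.9% of all genes in the table, and 27.1% rose. The 4 lie together on chromosome 11 and are close relatives, so reads may be shared among them.

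Slfn4 (chr11:83175186-83190216, 3964 bases), known from myeloid cells, had 621, 395, 423 and 417 normalised counts in Khk KO ileum and 139, 214, 194 and 248 in WT ileum. Khk KO replicate 1 stood above the other 3, which lay close together, and all were above the WT libraries. Its mean was 2.33 times as high, 1.22 in log2 (adjusted p = 1.30e-05 in the authors' deposited table). The edgeR value without the length trend was 1.34 ± 0.22 (SE; adjusted p = 0.0101).

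Slfn9 had 721, 734, 869 and 571 normalised counts in Khk KO and 285, 387, 465 and 481 in WT, and WT replicate 1 was the lowest. Its log2 fold change was 0.84 (adjusted p = 0.00157 in the authors' deposited table). Slfn5 had 485, 506, 517 and 453 in Khk KO ileum and 267, 373, 246 and 417 in WT ileum, with an adjusted p of 0.0298 in that table. Slfn3 was low, at 22.2 to 36.03 in Khk KO and 0 to 14.5 in WT, and did not pass (adjusted p = 0.0641 in the authors' deposited table). In liver Slfn5 rose as well, from 181, 107, 146 and 160.4 in WT to 274, 232, 205 and 279.8 in Khk KO without overlap (log2 fold change 0.74, adjusted p = 0.00577 in the authors' deposited table).

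Its neighbours Slfn1 and Slfn2, the second of which keeps T cells at rest, were lower in Khk KO liver without a call. Slfn2 had 38.4, 34.1, 40.5 and 32.7 normalised counts in Khk KO and 10.9, 118, 132 and 66.4 in WT, so WT replicate 1 was the lowest of all 8. Slfn1 reached no more than 32.5 normalised counts and was left out of the refit by its low-count filter. Slfn5 has 6326 bases, Slfn2 1664 and Slfn1 1864.

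Parp14, an ADP-ribosyltransferase of the interferon response, rose in liver and ileum and was higher in jejunum. In ileum it had 4279, 3649.8, 4366 and 3372 normalised counts in Khk KO and 2060.0, 2451, 1849 and 2184 in WT, without overlap and with the lowest adjusted p of any interferon-response gene in the authors' deposited tables, 1.04e-06, for a log2 fold change of 0.87. In liver it had 919.9, 754, 624 and 723 in Khk KO and 524, 467, 378 and 511 in WT (log2 fold change 0.69, adjusted p = 0.00156 in the authors' deposited table). In jejunum it had 2023, 2107, 1708 and 2104 and 1658, 1292, 1624 and 1464 (adjusted p = 0.165). The genotypes did not overlap in any of the 3 organs. At 9306 bases Parp14 is the longest of the interferon-response genes in these tables. Its difference with the length trend taken out was 0.34 in ileum, -0.05 in liver and -0.03 in jejunum, with no call by edgeR.

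Parp9, which works with the ubiquitin ligase DTX3L, was lower in all 4 Khk KO livers (802 to 891 normalised counts) than in any WT liver (961 to 1327). Its adjusted p in the authors' deposited table was 0.0631, and without the length trend the difference was -0.48 ± 0.14 (SE; edgeR adjusted p = 0.0766). So the 2 PARP genes, neighbours on chromosome 16, stood on opposite sides in liver by the authors' deposited table, in which Parp9 was not called. With the length trend taken out Parp14 showed almost no difference in liver, as given above.

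**Figure D4:**
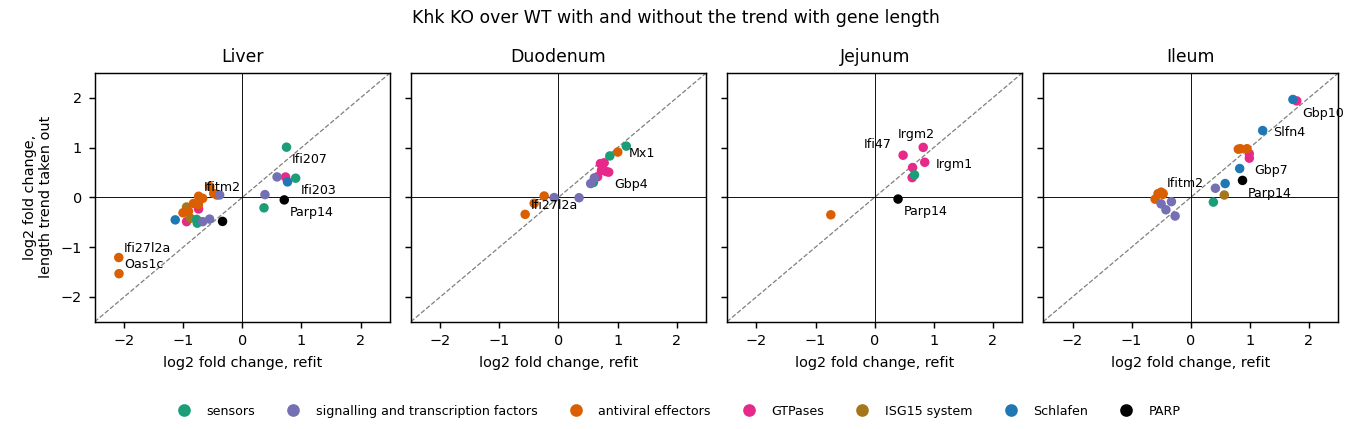
Log2 fold change, Khk KO to WT, from the edgeR refit (horizontal axis) against the value with the length trend of each library taken out (vertical axis), for the interferon-response genes fitted in each organ. Colours give the roles and the dashed line marks equal values. Most liver genes move towards 0, and the GTPases of duodenum and jejunum and Slfn4 of ileum stay well above 0.

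Of the 53 genes, 20 were in more than 1 table. Of these 11 were higher in Khk KO in each table that held them, 7 were lower in each and 2, Ifi47 and Irf2bp2, were higher in 1 organ and lower in the other. Genes that reached the limit of the tables in 1 organ alone are not among the 20, so the agreement in direction covers only genes that differed in several organs. Whether the effect differed between liver and ileum was tested by the organ by genotype term of edgeR on the 12 interferon-response genes in both tables. Genes that differed in only 1 of the 2 organs could not be tested this way. None of the 12 passed the adjusted p, which 15 of 2834 genes (0.529%) passed. Of the 12, 2 had an unadjusted p under 0.05. The lowest adjusted p was 0.186, for Irf2bp2, whose effect in liver exceeded that in ileum by 0.81 ± 0.24 (SE) in log2. Without WT replicate 1 of liver, 11.4% of the genes fitted passed, and so did 2 of the 12: Irf2bp2 at 0.97 (adjusted p = 0.00781) and Ifi27l2a at -2.01 (adjusted p = 0.0147).

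**Figure D5:**
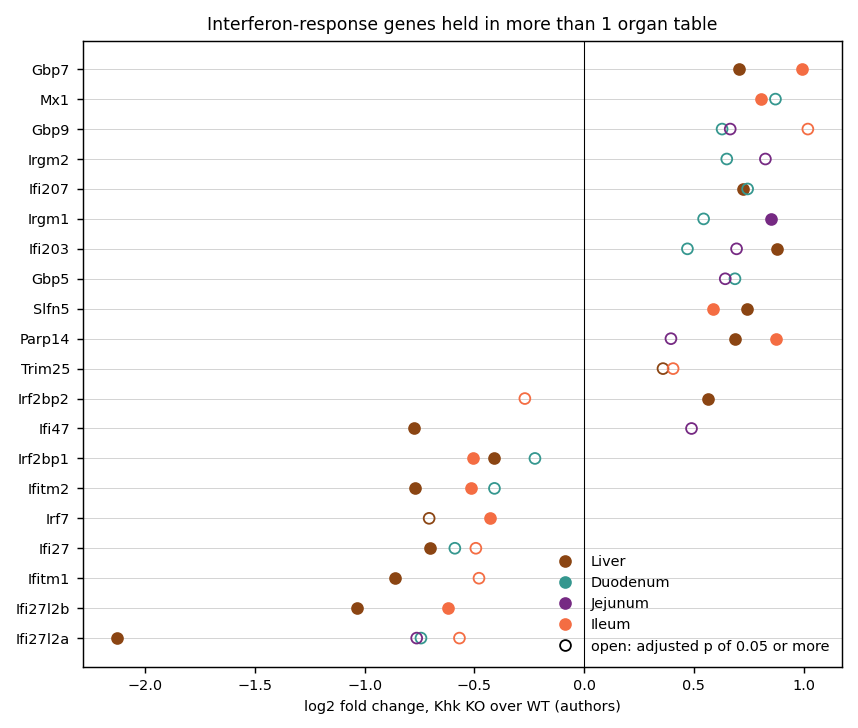
Log2 fold change, Khk KO to WT, in the authors' deposited tables (horizontal axis) for the 20 interferon-response genes in more than 1 organ table, 1 row per gene. Colours give the organ, and open points did not pass the authors' adjusted p. Points of a gene lie on the same side of 0 except for Ifi47 and Irf2bp2, and Ifi27l2a in liver lies far below the rest.

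The rest of the pathway was followed on a list of 77 genes: receptors and kinases, adaptors, interferons, negative regulators, other effectors and antigen presentation. No interferon gene of the list was in any table. In liver 33 of the 77 were in the table, of which 6 rose and 20 fell by the adjusted p of the authors' deposited table, where 35.8% of all genes rose and 32.6% fell. The receptor chains Ifnar2 and Ifngr2 fell and the kinases Jak1 and Jak2 rose, with 350.4 ± 49.5 normalised counts of Ifngr2 in Khk KO and 587 ± 95.97 in WT (SD), and 2234 ± 146 and 1496 ± 273 of Jak1. The 2 that fell, at 3329 and 3767 bases, are shorter than the 2 that rose, at 5030 and 7227.

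Of the 11 antigen presentation genes in the liver table, 9 fell and Nlrc5, the activator of class I genes, rose. Psmb9, a subunit of the immunoproteasome, fell from 206, 247, 384 and 367 normalised counts in WT liver to 147, 139, 146 and 139 in Khk KO liver, with no overlap (log2 fold change -1.08, adjusted p = 1.45e-04 in the authors' deposited table). Nlrc5 had 531, 557, 587 and 583 in Khk KO and 274, 301, 238 and 288 in WT, also with no overlap.

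After removal of the length trend, edgeR called 5 of the 33 in liver, where 13.7% of all fitted genes were called: Apol9a at -1.36, Tap1 at -0.98, Psmb9 at -0.84 and Ciita at -2.15 were lower, and B2m at 0.41 was higher, having been lower before (-0.32 in the authors' deposited table). Apol9a (5953 bases), Tap1 (5476) and Ciita (9535) were lower in Khk KO although long. TAP1 carries peptides to class I molecules and CIITA switches on class II genes. Tap1 had 347, 299, 318 and 287 normalised counts in Khk KO liver and 389, 465, 585 and 601 in WT liver, and Ciita 10.9 to 19.1 and 31.4 to 66.4.

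In ileum 26 of the 77 were in the table, with 5 rising and 6 falling by the adjusted p of the authors' deposited table, where 27.1% of all genes rose and 21.2% fell. All 10 antigen presentation genes there were lower and 5 of them fell, among them Psmb8 and Psme2 of the proteasome. Eif2ak2, the kinase PKR that halts translation on viral RNA, rose from 477, 707, 571 and 653 normalised counts in WT to 1300.2, 1021, 987 and 973 in Khk KO without overlap (adjusted p = 1.53e-04 in the authors' deposited table), and with the length trend taken out it was the 1 gene of the 26 called by edgeR, which called 9.94% of all fitted genes (0.71 ± 0.16, SE; adjusted p = 0.034). Socs3, a brake on cytokine signalling, rose, with 1715, 4092, 1188 and 1647 in Khk KO and 926, 1148, 1019 and 1188 in WT, the former widely spread. In jejunum 12 were in the table and Iigp1, another IRG, rose from 119, 160.5, 146 and 204 to 310.1, 409, 295 and 220.3 without overlap (adjusted p = 0.0336 in the authors' deposited table). In duodenum 9 were in the table, all higher, and none passed the authors' adjusted p.

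Markers of other cell types also differed between the genotypes. In liver 6 of 12 macrophage and Kupffer cell markers were in the table, all lower in Khk KO and 5 of them called, and their summed normalised counts ran from 3247 to 4536 in Khk KO and from 4348 to 11958 in WT. These were the complement genes C1qa, C1qb and C1qc, Lyz2 and the Kupffer cell lectin Clec4f, with Vsig4 not called. The 6 are 1040 to 2471 bases long. Of the protein-coding liver genes, 6.81% up to 1500 bases and 8.68% from there to 3000 bases were higher in Khk KO. Of the T and NK cell list, 2 of 13 were in the liver table, Cd4 and Cd8a, both lower, not called and together at 7.67 to 13.1 in Khk KO and 12.04 to 49.2 in WT, with Cd8a at 0 in at least 1 library. Liver endothelial markers went the other way: 3 of 7 were in the table, Kdr, Stab2 and Vwf, all higher and called, at 2364 to 2495 in Khk KO and 681 to 1857 in WT. They have 8757 bases or more, and 91.7% of the protein-coding liver genes over 6000 bases were higher in Khk KO. Of 8 hepatocyte markers 5 were in the table, of which Apoa1, Apoa2, Ttr and Serpina1a fell and Cps1 was higher without a call, at 333256 to 353755 in Khk KO and 389903 to 542278 in WT. In ileum 2 of 7 endothelial markers were in the table, both higher and not called, at 964 to 1063 against 651 to 832. In ileum 5 of 13 T and NK cell markers were in the table, all lower and 2 called, with sums of 201 to 757 in Khk KO and 512 to 1151 in WT. There 4 of 12 macrophage markers were in the table, all lower and 1 called, at 2312 to 3497 in Khk KO and 3238 to 4669 in WT. In duodenum and jejunum 1 of the 13 T and NK cell markers, Gzmb, was in the table, higher in Khk KO and not called, at 1117 to 1868 against 799.8 to 1225 in duodenum and 874 to 1073 against 419.8 to 906 in jejunum. None of the macrophage markers named for liver and ileum or the T and NK cell markers of ileum was at 0 in any library. Over all 25 markers of the liver table the median log2 fold change was -0.78 in the authors' deposited table. With the length trend taken out the median was -0.09 over the markers fitted, which leave out Cd8a, Ccr9, Muc2 and Tff3. With that trend out, edgeR called none of the liver markers fitted, where it called 13.7% of all fitted genes. The part of the markers in the differences of the interferon-response genes was not tested.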

How the data were processed

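The 32 libraries were grouped by organ and genotype from the labels' titles. Per the file headers, the authors deposited for each organ raw read counts, a normalised signal (the count divided by 1 size factor per library), FPKM, the log2 fold change between genotypes, its p-value and the adjusted p-value. Reads were aligned with HISAT2 2.0.5 to GRCm38 (mm10), per the submitters' processing notes. The counting tool and the authors' test are not given in the sources used here. The labels' protocol covers libraries that mark strand and libraries that do not, so strandedness is unknown. The tables stopped at an unadjusted p of 0.05, and ranks of the p-values gave the number of genes adjusted over: 18225 (liver), 15615 (duodenum), 9881 (jejunum) and 16034 (ileum). A value of 1, given to low genes, was read as not adjusted.

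"Rose" and "fell" rest on the authors' adjusted p under 0.05. Counts were refitted on the whole table of each organ with edgeR 4.0.16 (R 4.3.3; TMM on the library totals that FPKM imply, filterByExpr, quasi-likelihood test, Benjamini-Hochberg adjustment over the authors' number of genes). Since the tables hold mostly genes that differ, the refit learns its spread from those. Alternatives were DESeq2 1.42.0, the authors' size factors, no filter, the replicate number as a block, each library left out, and lowess trends (span 0.5, genes with a mean of at least 10) of each library with gene length or GC content as offsets. Of these fits, only the plain edgeR refit was tested on simulated counts. Those counts had the same spread for all genes, no trend with length and mostly unchanged genes, unlike the tables. Positions matched GENCODE M21 for 95.4% to 96.4% of genes.

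The 53 genes, the other lists and the tests were chosen with earlier results of these data known. Genes named are those of up to 12 rises and 12 falls per organ averaging 50 or more normalised counts, those in 3 or 4 tables, Stat2, Irf1, Irf7 and Irf9, and up to 6 called genes of the pathway list per organ. The others named were chosen after their values were seen. Of the 53, 1 gene is counted but is not reported by name or drawn here.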

Additional observations from a re-analysis of the deposited data

Results flagged for a closer look

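Among 94 groups of 4 libraries, 1 per genotype, organ and gene named, 6 held a library far from the other 3 by Dixon's ratio at its critical value for groups of that size. Chance alone flags about 1 group in 20. Khk KO replicate 3 of liver was low for Ifitm2 at 797 normalised counts, and WT replicate 3 of liver was high for Irf2bp1 at 457. WT replicate 1 of duodenum was high for Ifitm2 at 985. Khk KO replicate 4 was low for Irgm1 in jejunum at 444 and for Gbp7 in ileum at 445. Khk KO replicate 1 of ileum was high for Slfn4 at 621.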

How the results depend on the processing

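Direction and call of single genes: over 47 values per setting, none reversed with DESeq2, the authors' size factors, no filter, the replicate block or any library left out, 8 reversed with the length trend taken out and 3 with the GC trend taken out. With length out the log2 fold changes became 0.022 (Ifitm2), 0.048 (Irf2bp1) and -0.052 (Parp14) in liver, 0.027 (Ifitm2) in duodenum, -0.035 (Parp14) in jejunum and 0.077 (Ifi27), 0.074 (Ifi27l2a) and 0.10 (Ifitm2) in ileum. With GC out Irf2bp1 became 0.0013 in liver, 0.18 in duodenum and 0.050 in ileum. Interferon-response genes called in the liver refit (13) were 2 with length out, 7 with GC out, 0 to 27 with 1 library left out (27 without WT replicate 1, 0 to 5 without any other) and 29 by DESeq2 without WT replicate 1. In ileum (9) they were 15 by DESeq2, 1 with length out, 1 with GC out, and 2 to 10 with 1 library left out. In jejunum (0) they were 3 by DESeq2 and 2 by DESeq2 without WT replicate 1, and in duodenum (0) 2 by the latter. The median log2 fold change moved to -0.19 in liver, 0.41 in duodenum and 0.18 in ileum with length out and to 0.17 in ileum with GC out. With 1 library left out it ran from 0.43 to 0.79 in duodenum and from 0.43 to 0.77 in jejunum, lowest in both without WT replicate 1, where DESeq2 gave 0.41 in jejunum. The organ by genotype term called 2 genes without liver WT replicate 1 and 0 as fitted. DESeq2 without WT replicate 1 and the other pairs of organs were chosen after seeing the data.

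Correlations between the deviations of same-numbered libraries ran from -0.27 to 0.23 in liver, duodenum and ileum. In jejunum all 4 pairs were above 0, from 0.050 to 0.31, with 2 of them under 0.1, so the numbers were not taken as pairs. With the replicate number as a block 6 genes were called in liver and 5 in ileum, and Khk in jejunum stood at -3.34 (edgeR adjusted p = 0.128). The sums of reads in the tables are lower bounds of the depth, since the genes outside the tables are not counted.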
